A study of Mus musculus with 6 samples.

Results

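The Wnt pathway genes of the mouse hippocampus were followed in animals that lack 4 molecules of the neural extracellular matrix. A gene was taken as a member when its symbol is that of a numbered Wnt, Frizzled (Fzd), Sfrp or Dkk gene, or one of 17 further named receptors, inhibitors, transducers and targets, and when a probe set carries that symbol alone. This gave 53 of the 54 genes that the rule can name, out of 22180 genes on the array, and Tcf7 has no probe set of its own. Where a gene had several probe sets, the brightest on average over the 6 arrays was used. Within the rule, measured levels played no other part.

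The quadruple knockout mice (Tnc -/-, Tnr -/-, Bcan -/-, Ncan -/-) lack tenascin-C, tenascin-R, brevican and neurocan, and were set against wildtype mice. All were males, and the hippocampus was taken at postnatal day 21. Each genotype has 3 arrays that the labels call biological replicates, on the Affymetrix Mouse Gene 2.0 ST design, which places probes along the whole transcript. The methods name SV129 mice and call the animals siblings, and the legend of the array figure calls the samples dependent. Which arrays share a litter, and whether an array holds a single animal, is not given in the sources used here. Hence the p-values below measure the spread between these 6 samples. Values are log2 signals as deposited, errors are SD with n = 3 in each genotype, and differences are quadruple knockout minus wildtype.

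Wnt proteins are secreted ligands that carry a fatty acid, added by the enzyme Porcn. In the canonical branch they bring a Frizzled receptor together with Lrp5 or Lrp6, Dishevelled (Dvl) is recruited, and the complex of Axin, Apc and Gsk3b that destroys beta-catenin (Ctnnb1) is held back, so that beta-catenin acts with the Tcf/Lef factors on target genes such as Axin2. Other branches run through Ror and Ryk receptors to the cytoskeleton. Sfrp proteins and Wif1 bind the ligands outside the cell, and Dkk1 and its relatives block Lrp5 and Lrp6. In the hippocampus the pathway is known for its part in forming the region in the embryo, in the renewal of dentate granule cells and in the assembly of synapses.

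As an anchor in the genome for the results that follow, 250 bases upstream of the annotated start of 3 members are shown in the direction of the gene. Wnt7a is the ligand with the largest positive difference, and Wnt10b the ligand with the largest negative one as measured. Wnt10b lay near the background of the arrays, and only a bound on its difference is given below. Axin2 is the target gene that serves as the usual readout of the canonical branch. The windows are RefSeq sequence of build GRCm38.p6, at chr6:91411354-91411603 on the minus strand for Wnt7a, chr15:98778151-98778400 on the minus strand for Wnt10b and chr11:108920099-108920348 on the plus strand for Axin2. Capitals mark GC boxes (GGGCGG, or CCGCCC on the other strand).
Wnt7a: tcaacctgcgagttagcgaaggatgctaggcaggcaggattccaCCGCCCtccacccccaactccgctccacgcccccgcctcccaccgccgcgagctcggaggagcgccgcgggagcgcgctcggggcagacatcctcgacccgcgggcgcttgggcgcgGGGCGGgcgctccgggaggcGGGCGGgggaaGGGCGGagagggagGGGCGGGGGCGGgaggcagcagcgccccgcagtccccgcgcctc
Wnt10b: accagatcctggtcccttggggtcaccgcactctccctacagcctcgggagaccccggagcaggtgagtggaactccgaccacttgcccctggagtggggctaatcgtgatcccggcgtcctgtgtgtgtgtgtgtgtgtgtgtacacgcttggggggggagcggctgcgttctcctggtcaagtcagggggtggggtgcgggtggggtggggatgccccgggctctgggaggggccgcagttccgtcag
Axin2: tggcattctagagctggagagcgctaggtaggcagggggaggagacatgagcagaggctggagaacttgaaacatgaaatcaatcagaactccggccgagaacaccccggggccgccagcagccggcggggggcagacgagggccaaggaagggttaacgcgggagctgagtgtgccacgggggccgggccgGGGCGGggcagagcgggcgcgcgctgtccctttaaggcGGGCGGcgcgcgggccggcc

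The Wnt7a window held 6 GC boxes and 34 CpG dinucleotides at 77.6% G and C. The Axin2 window held 2 boxes and 24 CpG at 69.2%, and that of Wnt10b held no box and 14 CpG at 66.8%. All 3 lie above the median window of the genome, which has 6 CpG and 52.4% G and C. None of the 3 windows contains the Tcf/Lef core (CTTTGA, or TCAAAG on the other strand).

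A window was at hand for 36 of the 53 members. A GC box was found in 29 of these 36 (80.6%), against 35.4% of the 27025 genes that have a window. The Tcf/Lef core occurred in 6 of the 36 (16.7%), in Wnt11, Wnt5b, Fzd1, Ror1, Dkk1 and Gsk3b, against 15.8% of all genes. The members' windows were thus GC box-bearing more often than the genome's, while their share with a Tcf/Lef core lay near that of all genes. The GC box and the share of G and C are not separate properties, and a match of letters is a description only.

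The arrays were alike, with Pearson correlations between 0.993 and 0.996 over all probe sets. The median signal ran from 6.30 to 6.33 in knockout arrays and from 6.34 to 6.39 in wildtype ones, an offset that goes with genotype. The upper quartile went the other way, from 8.42 to 8.43 in knockout arrays and from 8.35 to 8.41 in wildtype ones. Bcan read 5.72 to 5.85 in the knockout and 10.36 to 10.68 in the wildtype, and Ncan 6.35 to 6.81 against 11.73 to 11.82, while Tnr and Tnc differed by only -0.10 and -0.15, so that the signals bear on the labels through Bcan and Ncan. Whether the probes of Tnr and Tnc lie in the deleted parts is not given in the sources used here. Markers of the tissue were present, with the dentate gene Prox1 above 11.4 in every array. As a background level served 6.03, the signal under which 95% of 1108 probe sets for olfactory receptors lay, and 44 members had a mean above it, 41 of them in all 6 arrays. A further 7 members were below it in all 6. In bulk tissue, fewer cells of a type and less RNA per cell cannot be told apart.

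No member passed an adjusted p of 0.05 in limma (0 of 53), where 0.139% of all 34472 probe sets did. The smallest adjusted p among the members was 0.135, and none had more than 1.5-fold with an unadjusted p under 0.05, a combination met by 0.438% of all probe sets. At an unadjusted p under 0.05, 4 members read higher in the knockout (Wnt7a, Fzd6, Fzd7 and Fzd10), against 3.91% of all probe sets, and 6 read lower (Wnt10b, Wnt8a, Wnt9b, Ror2, Sfrp4 and Sfrp5), against 5.14%. These are 7.55% and 11.3% of the members. Among all genes, each by its brightest probe set, 4.28% read higher and 4.04% lower. The higher count was 2 without knockout 1, without knockout 3 or without wildtype 1, and the lower count was 3 without knockout 3 or wildtype 2 and 2 without wildtype 1. With each array centred on its median, 5 read higher and 3 lower. An ordinary test, where no spread is shared between probe sets, left 2 higher and 6 lower, against 4.22% and 3.93% of all probe sets, and 0 members after adjustment.

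Among the 44 members above background 3 read higher and 3 lower at this p, where 5.30% and 2.81% of all genes above background did. The median difference of the 53 members was 0.02, and that of all genes 0.01. By role, the members that read lower at this p were ligands, 1 Ror receptor and Sfrp inhibitors, and 3 of the 4 that read higher were Frizzled receptors. The groups did not overlap for 3 members (5.66%) higher in the knockout, against 7.94% of all probe sets, and for 8 (15.1%) lower, against 7.39%. Among all genes, each by its brightest probe set, the shares were 9.73% and 6.39%. Of these 8 lower members 5 had a mean above background, where 4.99% of all genes above background were apart in this direction. The other 3 had a mean at or below it, where 9.09% were. Wnt10b is 1 of these 5, and also 1 of the 3 above background that read lower at this p. Its mean of 6.028 lay barely above the level of 6.026, with all knockout arrays below that level. Adjusted for all probe sets, the test recovered none of 50 simulated differences of 1.2-fold and 35 of 50 of 1.5-fold. At an unadjusted p under 0.05 it recovered 37 of the 50 of 1.2-fold. The simulated noise was independent between probe sets, and only probe sets above background were changed. In that setting differences near 1.2-fold were missed at the adjusted threshold, and the real arrays may do worse.

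**Figure D1:**
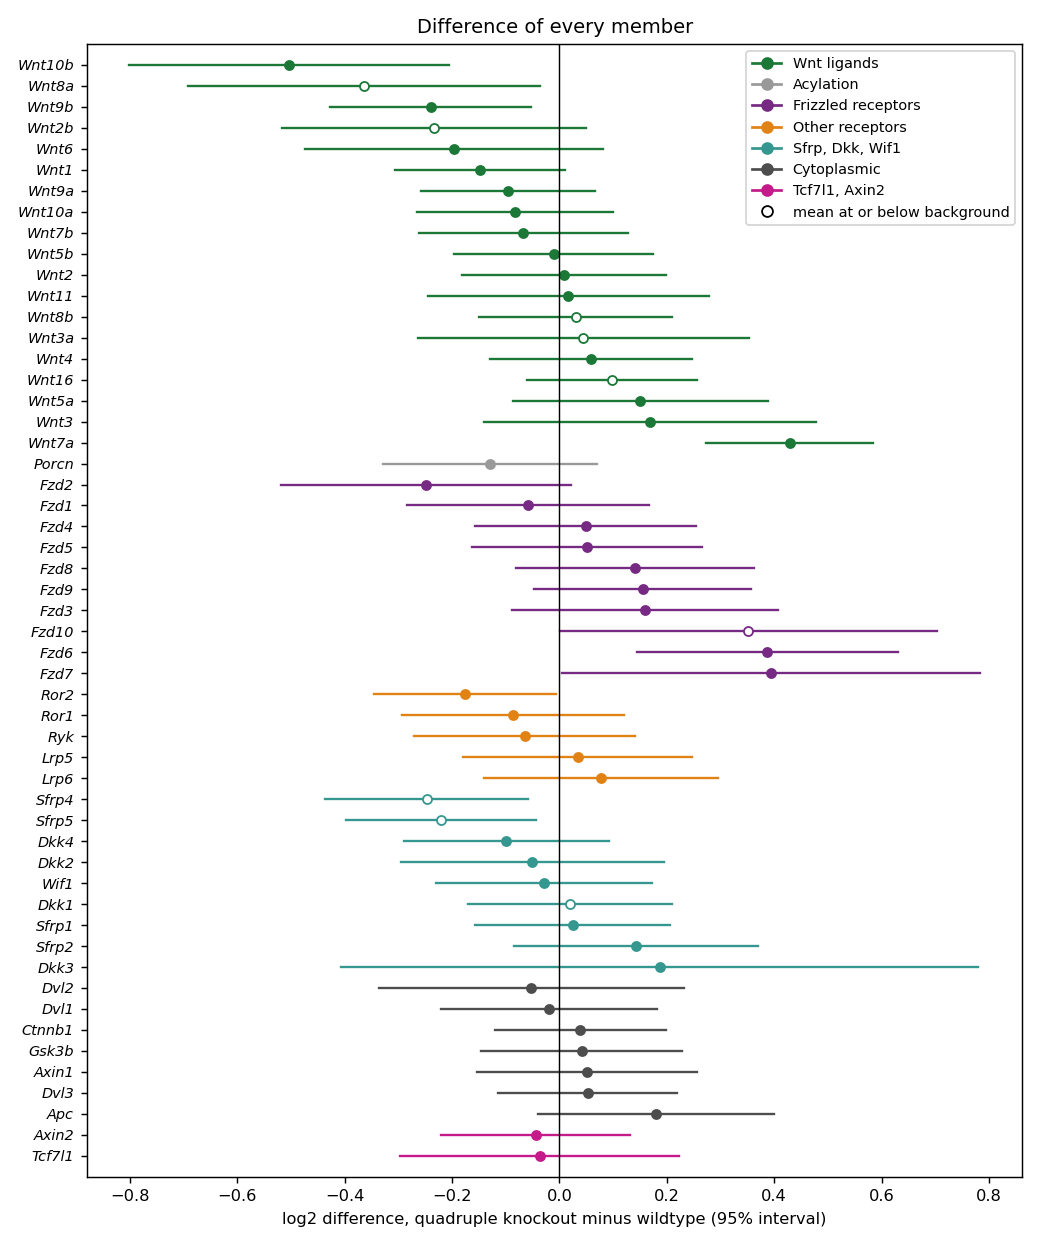
Difference of each of the 53 members in log2 units, quadruple knockout minus wildtype, with the 95% limma interval as a line, ordered within each role. Open points have a mean at or below the background level, and the interval of Wnt7a, from 0.27 to 0.58, lies farthest from 0.

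Among the 19 ligands 9 differences were above 0 and 10 below, with a median of -0.01. Wnt7a, which acts on brain blood vessels together with Wnt7b and on presynaptic differentiation of cerebellar neurons, read 7.83, 7.78 and 7.88 in knockout 1, 2 and 3 and 7.38, 7.41 and 7.41 in wildtype 1, 2 and 3. The groups were clearly apart, and within each genotype the arrays were close together (7.83 ± 0.05 against 7.40 ± 0.02). The difference was 0.43 (SE 0.07, interval 0.27 to 0.58), with an unadjusted limma p of 2.83e-04 and an adjusted p of 0.135. The adjusted p moved between 0.0323 and 0.516 over the alternatives, and only the setting that leaves out dim probe sets brought it under 0.05. The difference itself kept between 0.40 and 0.48.

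Its closest relative read otherwise. Wnt7b gave 8.62, 8.71 and 8.53 in the knockout and 8.64, 8.63 and 8.79 in the wildtype. The groups overlapped, and the interval of the difference from -0.26 to 0.13 holds no value as large as the Wnt7a difference (limma adjusted p = 0.827). Whether the difference of Wnt7a exceeds that of Wnt7b was not tested. Reck and Adgra2, which form the receptor complex specific to these 2 ligands, differed by -0.04 (interval -0.22 to 0.14) and -0.01 (interval -0.23 to 0.21), and they were named for this role after their values were seen.

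Wnt5a, the main ligand of the Ror branch, read 7.97, 8.27 and 8.04 in the knockout and 7.85, 7.94 and 8.04 in the wildtype. Knockout 2 stood highest and the groups overlapped, with an interval from -0.09 to 0.39 and an adjusted limma p of 0.682.

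The ligands that read lower at an unadjusted p under 0.05 all lay near the background level. Wnt10b, a canonical ligand best known in bone and fat, gave 5.81, 5.92 and 5.60 in the knockout and 6.33, 6.46 and 6.06 in the wildtype. All knockout arrays were below background and all wildtype arrays above it, so only a bound can be given, a wildtype signal at least 1.19-fold higher. This bound holds for the level used. Every Wnt10b array lay above the 90th percentile level of 5.59 and below the 99th percentile level of 6.95. The unadjusted limma p was 0.00499 and the adjusted p 0.446. Wnt8a, a ligand of the early embryo, had the same form, with 5.98, 5.83 and 5.44 against 6.22, 6.09 and 6.03. Here the bound was 1.06-fold, likewise for the level used, and the adjusted limma p 0.529. Wnt9b, needed for kidney tubules, was above background in every array, with 6.38, 6.30 and 6.37 in the knockout and 6.71, 6.49 and 6.57 in the wildtype. The groups were apart, and the difference was -0.24 (SE 0.08, limma adjusted p = 0.501).

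Wnt1, Wnt9a and Wnt16 were picked out after their values were seen, because their groups do not overlap. Wnt1, the ligand of the midbrain, read 6.12 to 6.25 in the knockout and 6.33 to 6.35 in the wildtype (unadjusted limma p of 0.0634). Wnt9a read 7.45 to 7.50 against 7.51 to 7.64, and Wnt16, below background in all 6 arrays, 5.50 to 5.56 against 5.39 to 5.50. For each of the 3 the gap between the groups was narrow. The differences of the other ligands ran from -0.23 in Wnt2b to 0.17 in Wnt3, all with overlapping groups. Porcn, which acylates the ligands, differed by -0.13 with an interval from -0.33 to 0.07.

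**Figure D2:**
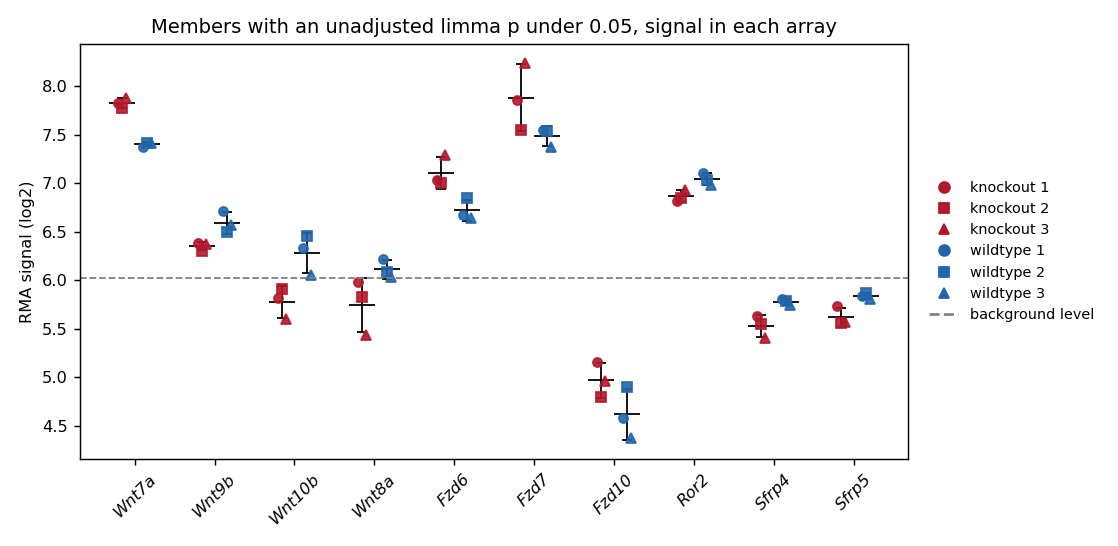
RMA signal in log2 units of the 10 members with an unadjusted limma p under 0.05, for each array (red knockout, blue wildtype, one shape per replicate number), with the mean and SD of 3 arrays and the background level of 6.03 as a dashed line. The Wnt7a arrays are tightly grouped and apart, Fzd7 knockout 3 stands above all other arrays of that gene, and Fzd10, Sfrp4 and Sfrp5 lie wholly below the dashed line.

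Frizzled receptors are the 7-pass membrane proteins that bind the ligands. Of the 10, 8 differences were above 0, against 52.9% of all genes, and the median was 0.15. Of the 9 above background 7 were above 0, against 60.3% of such genes, with a median of 0.14, where all genes above background had 0.03. Over all alternatives the Frizzled median lay between 0.11 and 0.21.

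Fzd6, known from the orientation of hairs in the skin, read 7.03, 7.00 and 7.29 in the knockout and 6.67, 6.84 and 6.64 in the wildtype. The groups did not overlap (7.11 ± 0.16 against 6.72 ± 0.11), with knockout 3 the highest. The difference was 0.39 (SE 0.10, interval 0.14 to 0.63), a ratio of 1.31, with an unadjusted limma p of 0.00678 and an adjusted p of 0.451. Fzd7, a receptor of stem and progenitor cells, gave 7.85, 7.55 and 8.24 in the knockout and 7.55, 7.54 and 7.37 in the wildtype. Knockout 2 lay within the wildtype range and knockout 3 far above it, and the interval ran from 0.01 to 0.78 (limma adjusted p = 0.550). Without knockout 3 the difference was 0.21 and no longer passed the unadjusted threshold. Fzd10 lay below background in all 6 arrays, at 4.80 to 5.16 in the knockout and 4.38 to 4.90 in the wildtype, and no fold is given for it (unadjusted limma p of 0.0497).

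Among the remaining Frizzled genes no unadjusted limma p was under 0.05. Fzd3, which guides growing axons, read 9.31 to 9.58 in the knockout and 9.16 to 9.43 in the wildtype, with an interval of the difference from -0.09 to 0.41. Fzd4, the receptor through which Norrin acts on retinal vessels, differed by 0.05 (interval -0.16 to 0.26). The exceptions in direction, picked out after their values were seen, were Fzd1 and Fzd2. Fzd2 read 7.20 to 7.40 in the knockout and 7.35 to 7.70 in the wildtype, a difference of -0.25 (interval -0.52 to 0.02), and Fzd1 differed by -0.06 (interval -0.28 to 0.17).

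The co-receptors of the canonical branch, Lrp5 and Lrp6, gave differences of 0.03 (interval -0.18 to 0.25) and 0.08 (interval -0.14 to 0.30). The second probe set of Lrp6 gave 0.11. Among the receptors of the other branch, Ror2, a tyrosine kinase that binds Wnt5a, read 6.82, 6.84 and 6.93 in the knockout and 7.11, 7.03 and 6.98 in the wildtype. The groups lay apart by a narrow gap, with a difference of -0.18 (SE 0.07, interval -0.34 to -0.01, limma adjusted p = 0.541). Ror1 and Ryk, the latter a receptor with an inactive kinase domain, differed by -0.09 and -0.06 with overlapping groups. So the 3 Ror and Ryk receptors read lower and the pair of Lrp co-receptors higher in the mean, but the intervals of all but Ror2 include 0.

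Of the 9 secreted inhibitors 4 differences were above 0 and 5 below, with a median of -0.03. Sfrp4 gave 5.63, 5.55 and 5.41 in the knockout and 5.81, 5.79 and 5.74 in the wildtype (unadjusted limma p of 0.0168, adjusted p of 0.499). Sfrp5 gave 5.73, 5.56 and 5.57 against 5.84, 5.87 and 5.81 (unadjusted limma p of 0.0211, adjusted p of 0.509). In both genes the groups were apart, yet every array lay below background, so neither has a fold. At an unadjusted p under 0.05, 6.39% of all genes at or below background read lower in the knockout and 2.32% higher.

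The inhibitors with clear signal showed no such separation. Sfrp1 read 8.45, 8.32 and 8.42 in the knockout and 8.29, 8.37 and 8.45 in the wildtype, with an interval from -0.16 to 0.21. Dkk3, a divergent Dkk protein that many neurons make, was the most variable member, with 10.58, 10.35 and 11.23 against 10.56, 10.86 and 10.17. Its highest array was knockout 3 and its next highest wildtype 2, and the interval from -0.41 to 0.78 leaves the direction undetermined.

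Inside the cell, none of the 7 transducers had an unadjusted limma p under 0.05, and their median was 0.04. Ctnnb1 read 12.14, 12.05 and 12.02 in the knockout and 12.03, 12.01 and 12.05 in the wildtype. These values overlapped, and the interval from -0.12 to 0.20 holds differences of at most 0.20 in size. Gsk3b, the kinase that marks beta-catenin for destruction, differed by 0.04 (interval -0.15 to 0.23) and Dvl3 by 0.05 (interval -0.11 to 0.22). Apc, the scaffold of the destruction complex, had the largest value of the class, 0.18 (interval -0.04 to 0.40, unadjusted limma p of 0.0949).

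The target gene Axin2 read 8.09, 8.15 and 7.96 in the knockout and 8.10, 8.10 and 8.13 in the wildtype. Knockout 3 was lowest and knockout 2 highest, so the wildtype arrays lay inside the knockout range. The interval ran from -0.22 to 0.13, and the second probe set of Axin2 gave -0.14 with an interval from -0.36 to 0.09. Tcf7l1, a Tcf factor that mostly represses, differed by -0.04 (interval -0.30 to 0.22).

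A list of further pathway genes was read beside the members, 65 of them measured. None passed an adjusted limma p of 0.05. At an unadjusted p under 0.05, 3 read higher in the knockout (Lgr5, Wls and Rspo3) and 2 lower (Kremen2 and Cer1), where 5.30% and 2.81% of all genes above background did. With each array centred on its median these counts were 10 and 0. The median was 0.03, the same as for all genes above background. The groups did not overlap for 13 of the 65 (20.0%) in the higher direction, against 12.9% of all genes above background, and for 5 in the lower, against 4.99%.

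Lgr5, a receptor for R-spondins and a target gene of the pathway, read 6.66, 6.47 and 6.87 in the knockout and 5.83, 6.21 and 6.13 in the wildtype. The groups were apart, with wildtype 1 below background. The difference was 0.61 (SE 0.13, interval 0.29 to 0.93), a ratio of 1.53, with an unadjusted limma p of 0.0024 and an adjusted p of 0.389. It was the only one of the 65 with more than 1.5-fold and an unadjusted p under 0.05. A dimmer second probe set of Lgr5 did not share the difference, with 5.82, 6.17 and 5.95 against 6.03, 5.81 and 5.95 and an interval from -0.21 to 0.31.

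Wls, which carries the ligands to the cell surface, read 8.11, 7.78 and 8.14 in the knockout and 7.65, 7.51 and 7.72 in the wildtype. Its groups were apart by a narrow gap, and the difference was 0.38 (SE 0.12, limma adjusted p = 0.486). Rspo3, a secreted R-spondin that raises the number of Frizzled receptors at the membrane, gave 9.18, 9.13 and 9.05 against 8.90, 8.52 and 8.93. Wildtype 2 lay well below the other wildtype arrays, and the difference of 0.33 (limma adjusted p = 0.516) was 0.20 without it. Kremen2, which binds Dkk proteins, read 6.79, 6.79 and 6.79 in the knockout and 6.96, 7.18 and 6.88 in the wildtype (limma adjusted p = 0.545). Cer1, a secreted antagonist of the early embryo, was below background in all 6 arrays.

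By their brightest probe sets, no further gene of the list had an unadjusted p under 0.05. A dimmer second probe set of Tnks, a tankyrase that promotes the breakdown of Axin, gave a difference of 0.20 (interval 0.00241 to 0.39, unadjusted limma p of 0.0479) with groups apart, where the brightest gave 0.11 (interval -0.06 to 0.27). The smallest p values among the cytoplasmic and nuclear genes were those of Tcf7l2, a Tcf factor (0.16, unadjusted limma p of 0.0635), and Btrc, which hands beta-catenin to the proteasome (0.13, unadjusted limma p of 0.0723), and 21 of these 25 genes had a difference above 0, against 60.3% of all genes above background. For planar cell polarity they were those of Daam2, a formin that binds Dishevelled (0.13), and Vangl1, a membrane protein of the polarity core (-0.15). Of the 10 direct target genes 8 were above 0, read against the same 60.3%, with a median of 0.06. They leave out the target Axin2, a member, which read -0.04 and -0.14 on its probe sets. Lef1 and Nkd1 are counted both here and among the cytoplasmic and nuclear genes. Notum and Apcdd1 are also counted with the genes of secretion and extracellular control, and Lgr5, Znrf3 and Rnf43 with the other membrane components. Notum, a target that removes the fatty acid from Wnt proteins, differed by 0.15 (interval -0.01 to 0.32), and its dimmer second probe set by -0.02.

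**Figure D3:**
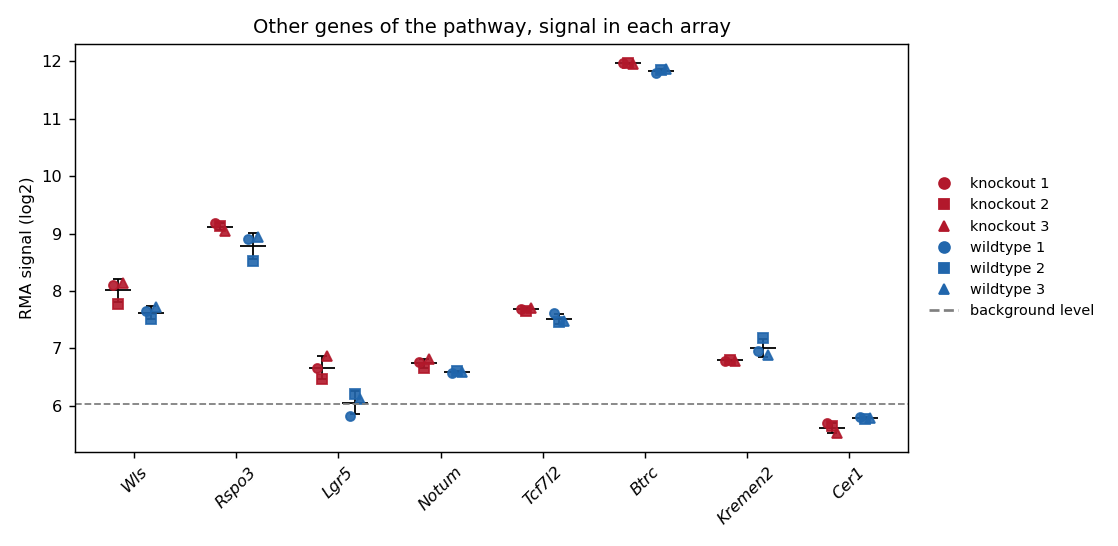
RMA signal in log2 units of 8 other pathway genes for each array (red knockout, blue wildtype, one shape per replicate number), with the mean and SD of 3 arrays and the background level of 6.03 as a dashed line. Lgr5, Wls and Rspo3 read higher in every knockout array, and Kremen2 and Cer1 lower.

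Some marker lists differed with genotype and others with single arrays. Of 10 interneuron markers 9 were measured, all above background, and their mean was 9.11 to 9.22 in the knockout and 8.91 to 8.95 in the wildtype, and 4 of the 9 had an unadjusted limma p under 0.05, all higher, where 5.30% of all genes above background read higher at this p. The Cajal-Retzius list gave 6.59 to 6.72 against 6.53 to 6.55 and the neocortical list 8.03 to 8.07 against 7.86 to 7.97. At an unadjusted limma p under 0.05, 0 of the 4 Cajal-Retzius markers and 1 of the 5 neocortical ones (Rorb) read higher, and none lower. Of these markers 3 and 4 were above background. With each marker left out in turn, the interneuron and neocortical lists stayed apart in all 9 and all 5 cases and the Cajal-Retzius list in 2 of 4. Wnt7a and Fzd6 also did not overlap between the genotypes, and the part of these cell types in their values was not tested.

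The mean of the 6 meningeal markers, 7.10 to 7.36 against 7.00 to 7.06, was apart. Dcn, a proteoglycan of fibroblasts, differed most, with 8.92, 8.49 and 10.31 in the knockout and 7.91, 8.18 and 7.72 in the wildtype. Without Dcn the other 5 gave 6.77 to 6.84 against 6.84 to 6.86, with overlapping groups. The groups also overlapped without Lum or without Aldh1a2, so the list stayed apart in 3 of 6 cases. Of the 6, 1 (Dcn) read higher and 1 (Col1a1) lower at an unadjusted limma p under 0.05.

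The list for CA1 pyramidal cells followed no genotype. It stood 0.56 above its mean over all arrays in knockout 3 and 0.31 above it in wildtype 2, and below it in the other 4. Fzd7 and Dkk3 were likewise highest in knockout 3. Dkk3 was next highest in wildtype 2, but Fzd7 lay 0.15 below its mean there and 0.17 above it in knockout 1. Knockout 3 and wildtype 2 also had the highest CA1 means with any 1 marker left out, wildtype 2 coming first without Fibcd1. The pattern was not particular to CA1. The CA3 list was also highest in these 2 arrays, 0.19 above its mean in knockout 3 and 0.15 in wildtype 2. So was the oligodendrocyte list, 0.23 above its mean in knockout 3 and 0.29 in wildtype 2. The endothelial list was highest in knockout 3, at 7.49, and the dentate list lowest there, 0.27 below its mean, and both held with any 1 marker left out. The part of tissue makeup in the values of Fzd7 and Dkk3 was not tested.

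**Figure D4:**
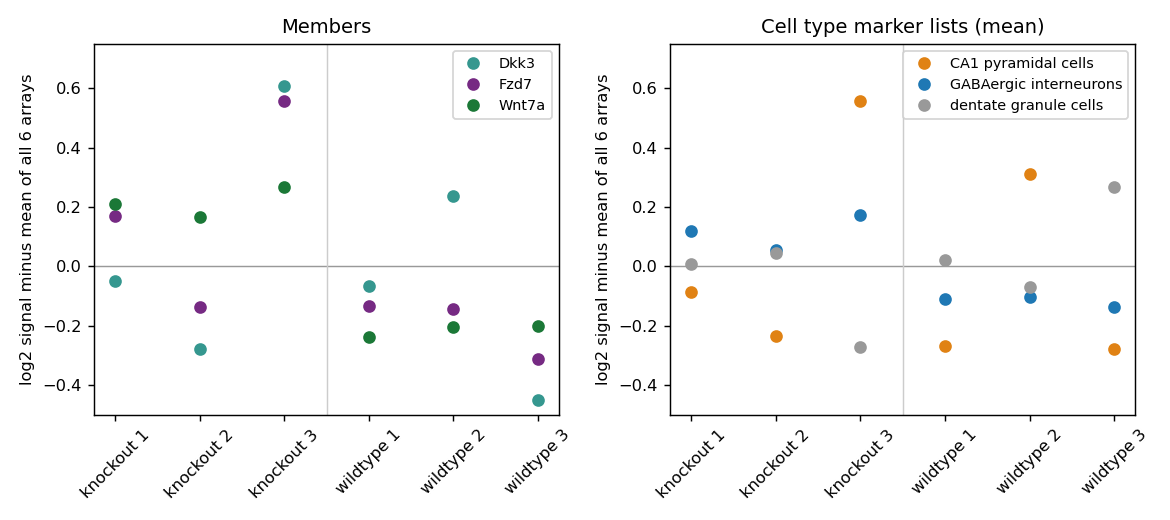
Log2 signal minus the mean of all 6 arrays, for Wnt7a, Fzd7 and Dkk3 on the left and for the mean of 3 cell type marker lists on the right, by array. Knockout 3 is the highest array for Fzd7, Dkk3 and the CA1 list and the lowest for the dentate list. Wnt7a and the interneuron list are also highest in knockout 3. Both are above 0 in all 3 knockout arrays and below 0 in all 3 wildtype arrays.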

How the data were processed

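Total RNA of the hippocampus was measured on 6 arrays, grouped by the genotype in the labels. The authors normalized the arrays with RMA in Affymetrix Expression Console, as named in the submitters' processing notes beside the Transcriptome Analysis Console, and deposited log2 signals. The version of each tool is not given in the sources used here, nor is a build. Of 34472 probe sets, 23521 carry 1 symbol in the platform annotation, 1820 several and 9131 none, and only the first were named.

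All probe sets were fitted with limma 3.58.1 in R 4.3.3 (lmFit, eBayes, no block, two-sided, Benjamini-Hochberg over all probe sets). An exact permutation test of 1 gene, 3 against 3, can give no two-sided p under 0.1. The number of arrays limits the precision. The members and lists were chosen with earlier results of these data known. The genes named are Wnt7a, every member or other pathway gene with an unadjusted p under 0.05, and per role or sublist the 2 with the smallest p and, for members, the 2 with the highest signal, and any member whose bright probe sets differ in sign. A bound sets the bright group's mean against the background level. On simulated data of 34472 probe sets, at an adjusted p under 0.05, limma found 0 of 50 differences of 1.2-fold and 35 of 50 of 1.5-fold. It found 48 of 50 of 2-fold and all 50 of 4-fold, and it made 6 false calls.

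The settings varied were the replicate number as a block, a trend of the variance on intensity with robust estimates, an ordinary test on single probe sets, weights per array, quantile normalization and median centring. Dim probe sets were also left out, a gene was read by its brightest probe set or by their mean, the background percentile was moved, and each array was dropped in turn. Leaving out each marker of a cell type list in turn was chosen after seeing the data. Figures were drawn with matplotlib 3.10.9 and pandas 2.3.3.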

Additional observations from a re-analysis of the deposited data

How the results depend on the processing

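No setting brought a member or another pathway gene past the adjusted p of 0.05 except leaving out dim probe sets, where 1 member, Wnt7a, passed at 0.0323. With each array left out in turn the members past it numbered 0 to 0, as did the other pathway genes. Replicate numbers are shared between the genotypes, but samples of one number did not deviate together (r of -0.02, -0.23 and -0.19). Between different numbers r reached 0.21 for knockout 3 with wildtype 2 and 0.19 for knockout 2 with wildtype 3. Dependence between such arrays was not tested. With the number as a replicate block 2 members read higher and 5 lower, against 4 and 6, 0 pathway genes read lower, and 39 probe sets in place of 48 passed. The ordinary test gave 2 members and 8 pathway genes higher. Median centring took away the genotype offset of the median signal, while the upper quartiles had differed the other way. This setting gave 3 members lower and 5 higher, and a members' median of 0.070. Of the pathway genes 10 read higher and 0 lower, with a median of 0.088. Among all probe sets 2628 read higher and 881 lower, in place of 1348 and 1773. Quantile normalization gave 0 pathway genes lower and a pathway median of 0.00245. The intensity trend gave 7 pathway genes higher and 0 lower, array weights 1 lower, and bright probe sets alone 6 higher. Leaving out 1 array moved the higher members between 2 and 5, the lower members between 2 and 7, their median between -0.01 and 0.04, the higher pathway genes between 2 and 5 (5 without knockout 2), the lower between 0 and 2 (0 without knockout 2 or wildtype 2, and 1 without knockout 1, knockout 3 or wildtype 1) and their median between 0.03 and 0.06. The cause of these shifts was not tested.

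Of the 36 named genes, 29 kept the sign of their difference under every setting run. The other 7 changed sign. After median centring Axin2 read 0.0090 and Tcf7l1 0.016, and after quantile normalization Sfrp1 read -0.020. Leaving out 1 array moved Axin2 between -0.086 and 0.0086 (above 0 without knockout 3), Dkk3 between -0.071 (without knockout 3) and 0.37, Fzd4 between -0.0033 (without wildtype 1) and 0.13, and Lrp6 between -0.0064 (without knockout 1) and 0.14. It moved Ryk between -0.12 and 0.0021 (above 0 without wildtype 2), Sfrp1 between -0.017 and 0.066 (below 0 without wildtype 1 and, at -0.0016, without knockout 1) and Tcf7l1 between -0.11 and 0.063 (above 0 without knockout 2 and, at 0.015, without wildtype 3). With the background level at the 90th or the 99th percentile, 2 or 24 members lay at or below it in place of 9.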
